A study of Equus caballus with 3 samples.

Results

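The insulin-like growth factor (IGF) axis was examined in equine mesenchymal stromal cells (MSCs) cultured from fat (adipose tissue, AT), from the marrow of the bone (BM) and from circulating blood (peripheral blood, PB). Its members were chosen by name as the ligands *IGF1* and *IGF2*, the receptors *IGF1R* and *IGF2R*, and the binding proteins *IGFBP2* to *IGFBP7*, which gives 10 genes of 29927 with a row in at least 1 of the 3 count matrices. All 3 cultures came from the same healthy warmblood mare, aged 10 years, were untreated and were captured after passage in culture, with 1 droplet-based single-cell RNA sequencing (scRNA-seq) library per source. A difference between sources is therefore also a difference between libraries and has no replicate check in these data. Values are given with exact 95% Poisson intervals for sums and Clopper-Pearson intervals for shares, which cover counting error only. The study also ran RT-PCR on some source-specific genes in matched cultures of further horses, and its primer list holds *IGFBP5*. It reports that patterns were largely kept, except for *MGLL* and *CRABP2*. Tissue names follow the sample titles and the culture protocol, since in all 3 samples the field for the source holds peripheral mononuclear blood cells.

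IGF1 and IGF2 are secreted peptides that drive growth, survival and differentiation of mesenchymal cells through the receptor tyrosine kinase IGF1R. IGF2R, the cation-independent mannose 6-phosphate receptor, does not pass on this signal and instead carries IGF2 to the lysosome. The IGF binding proteins (IGFBPs) hold the ligands in the extracellular space, where they prolong, block or localise their action until proteases cleave the binding protein. Stromal cells are a known source of both IGF2 and IGFBPs in bone, fat and other connective tissues.

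Barcodes with 2500 to 15000 unique molecular identifiers (UMIs, each standing for 1 captured transcript) and at most 3% of UMIs on the mitochondrial chromosome were kept, which left 5403 AT-, 5580 BM- and 5318 PB-derived MSCs with medians of 7291, 6874.5 and 7750 UMIs. The stromal markers *ITGB1*, *CD44*, *THY1*, *ENG*, *B2M*, *PDGFRB*, *COL1A1* and *COL1A2* had UMIs in every library, with summed levels between 8994 and 15904 CPM (UMIs of a gene summed over the kept cells and scaled to 1000000 UMIs per library). The leukocyte gene *PTPRC* was at 0 in all 3 libraries, and 7 haematopoietic markers together reached at most 0.325 CPM and 5 endothelial markers at most 0.192 CPM. Cells with at least 2 UMIs of a cell cycle gene list after thinning to 2500 UMIs, called cycling here, made up 18.1% of the AT, 31.7% of the BM and 15.6% of the PB culture. All 5318 kept PB barcodes also occurred in the AT matrix, but 5279 of these had fewer than 2500 UMIs there, and 37 to 42 barcodes were kept in both libraries of each pair of sources. No cell type that should lack IGF axis transcripts was found, so the share of cells that free RNA alone would give could not be measured.

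The differences between the 3 sources lay in the ligand *IGF2* and in which binding proteins the cells carried. AT-derived MSCs carried *IGFBP5*, *IGFBP4* and *IGFBP2* at higher levels than the other sources, BM-derived MSCs carried *IGF2*, *IGFBP6* and *IGFBP7* at higher levels, and PB-derived MSCs had *IGFBP6* and *IGFBP4* with very little of the other binding proteins. Both receptors were at similar low levels everywhere, and *IGF1* was close to absent, with a single UMI in AT, 2 UMIs in BM and none in PB (0 of 5318 cells, which by the limit of 3 counts allows a share of cells with a UMI of up to 0.0564% and sets no limit on cells that express the gene). The limit set by a count of 3 UMIs was 0.0750, 0.0746 and 0.0721 CPM, so none of the *IGF1* values was above it.

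**Figure D1:**
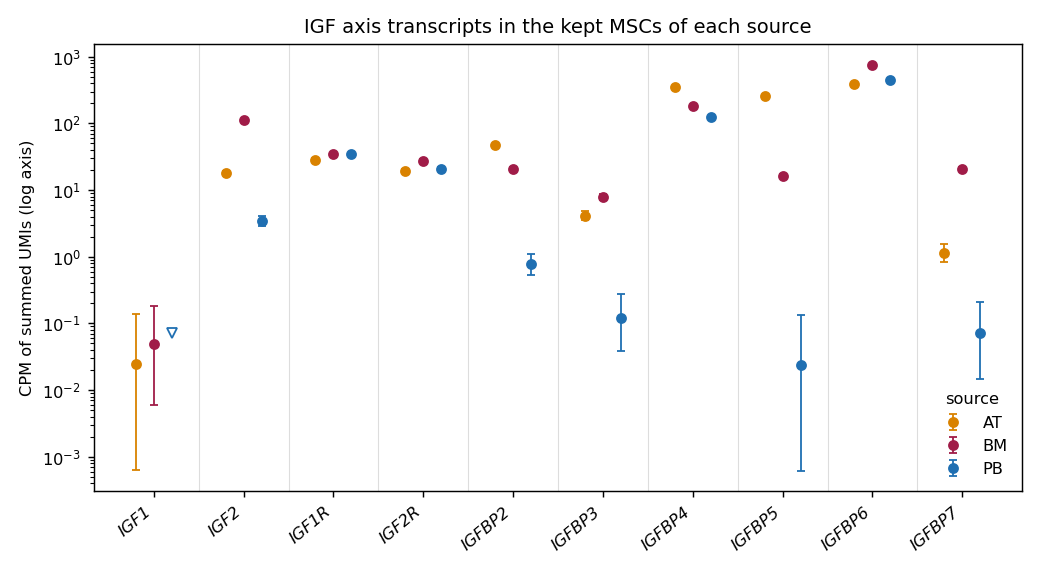
CPM of the summed UMIs of each IGF axis gene (log axis) over the kept cells of AT, BM and PB, with 1 library per source. Points are values, bars are exact 95% Poisson intervals and the open triangle marks the limit of 3 UMIs for *IGF1* in PB, where no UMI was seen. The points for *IGF1R* and *IGF2R* lie close together, whereas *IGFBP5* ran from 258 CPM in AT to 0.0240 CPM in PB.

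Among the ligands, *IGF2*, a paternally expressed imprinted gene in mammals, was the transcript the cultures carried. On chromosome 12, it reached 18.1 CPM (16.8 to 19.4) in AT, 114 CPM (110.3 to 117) in BM and 3.48 CPM (2.94 to 4.10) in PB. The level in BM was 6.29-fold that in AT (5.81 to 6.81) and 32.6-fold that in PB (27.6 to 38.7), and none of the 3 intervals overlapped. Without the mitochondrial limit, which had left out 38 AT, 166 BM and 49 PB barcodes, the log2 difference between AT and BM moved from −2.59 to −2.20. That between AT and PB moved from 2.09 to 2.48. The shares of cells with an *IGF2* UMI were 5.42% in AT, 24.5% in BM and 1.47% in PB, and after thinning of every cell to 2500 UMIs 2.91%, 15.7% and 0.715%. The transcript was unevenly spread between cells, with up to 43 UMIs in a single BM-derived MSC. Its Fano factor, the variance of thinned UMIs over their mean, was 2.69 in BM and 2.77 in AT, above 99.8% of genes of similar mean in either library.

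The receptors gave the contrast to this. *IGF1R*, which transmits the signal of both ligands, was at 28.1 CPM (26.5 to 29.8) in AT, 34.2 CPM (32.4 to 36.1) in BM and 34.3 CPM (32.5 to 36.1) in PB, on chromosome 1. *IGF2R*, on chromosome 31, was at 19.5 CPM (18.2 to 20.9), 27.3 CPM (25.7 to 29.0) and 20.7 CPM (19.4 to 22.1) in the same order. For *IGF1R* the BM and PB intervals overlapped, with a ratio of BM over PB of 0.999 (0.927 to 1.08), and for *IGF2R* those of AT and PB, with a ratio of 0.942 (0.854 to 1.04). The remaining differences were at most 1.40-fold. A UMI of *IGF1R* was seen in 18.1% to 22.4% of cells and one of *IGF2R* in 13.2% to 16.9%, and Fano factors of 0.999 to 1.05 were close to those of random sampling. Which sources were alike in *IGF1R* turned on the scaling. On the log2 scale, the difference between AT and BM was −0.27 with total UMIs and −0.00 with TMM factors, which centre the bulk of genes, while that between BM and PB was −0.00 and −0.23.

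The binding proteins summed to 1042 CPM in AT, 1007 CPM in BM and 575 CPM in PB. A UMI marks the 3′ end of a transcript whatever its length, so UMIs of different genes were compared without a correction for length. *IGFBP6*, which binds IGF2 in preference to IGF1, took the largest share in every source, with 37.0% of the AT, 75.6% of the BM and 78.0% of the PB IGFBP UMIs. *IGFBP4*, generally an inhibitor of IGF action, took 33.3%, 17.9% and 21.8%. *IGFBP5* took 24.7% (24.3 to 25.1) in AT, 1.61% (1.49 to 1.73) in BM and 0.00418% (0.000106 to 0.0233) in PB. AT-derived MSCs thus had 3 abundant binding proteins, while in the other sources *IGFBP6* and *IGFBP4* left little to the other 4, with 0.780% to 2.09% each in BM and at most 0.134% each in PB.

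*IGFBP5*, which binds extracellular matrix and is abundant in bone and muscle, had the widest range between sources of the 10 genes. Its 10303 UMIs in AT corresponded to 258 CPM (253 to 263), its 651 UMIs in BM to 16.2 CPM (15.0 to 17.5) and its single UMI in PB to 0.0240 CPM (0.000608 to 0.134). AT was 15.9-fold above BM (14.7 to 17.3), or 3.91 on the log2 scale, and the ratio of AT over PB was 10726 with an interval of 1925 to 423698, since it rests on 1 UMI. UMIs were found in 54.9% of AT- and 5.91% of BM-derived MSCs, or 34.0% and 2.58% after thinning, and in 1 of the 5318 PB cells. Levels varied widely within AT, where a cell held up to 63 UMIs and the Fano factor of 2.39 exceeded that of 99.3% of similar genes. The log2 difference between AT and BM was 5.58 in cells without a cycling call and 4.96 without the cells that had *HMX2* or *HMX3* UMIs, the latter an alternative added after seeing the data. Among 8 smooth muscle or pericyte markers, *ACTG2* (422, 184 and 52.4 CPM), *DES* (204, 5.04 and 0.288 CPM) and *MYH11* (5.78, 4.03 and 1.03 CPM) had the same order of AT, BM and PB. The others, *ACTA2*, *TAGLN*, *CNN1*, *RGS5* and *CSPG4*, did not, and the list summed to 2458, 3045 and 2360 CPM. The part of these markers in the difference was not tested. The 5279 AT barcodes under the UMI limit that were kept in PB held 41 *IGFBP5* UMIs, or 9.26 CPM, against 258 CPM in the kept AT cells and 0.0240 CPM in PB.

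*IGFBP2*, which lies next to *IGFBP5* on chromosome 6 with no gene between them in RefSeq (assembly TB-T2T), followed the same order of sources. It reached 46.7 CPM (44.6 to 48.9) in AT, 21.0 CPM (19.6 to 22.5) in BM and 0.769 CPM (0.526 to 1.09) in PB, and its product carries an integrin-binding motif beside the IGF-binding domain. *IGFBP2* was below the 258 CPM of *IGFBP5* in AT, but above its 16.2 CPM in BM and 0.0240 CPM in PB. For *IGFBP2*, the ratio of AT over BM was 2.22 (2.05 to 2.42) and that of AT over PB 60.8 (42.9 to 89.1). An AT-derived MSC held at most 6 of its UMIs, and its Fano factor in AT was 1.09, above that of 93.8% of genes of similar mean. The 2 neighbours were transcribed from opposite strands, and Pearson's r between them across the 5403 thinned AT cells, which share 1 library, was −0.03.

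Before thinning, *IGFBP4* and *IGFBP6* were the binding proteins with a UMI in a majority of cells in every source. In AT, BM and PB these shares were 85.4%, 58.1% and 55.6% for *IGFBP4* and 80.1%, 93.9% and 88.8% for *IGFBP6*. *IGFBP4*, on chromosome 11, was at 347 CPM (342 to 353) in AT, 179.8 CPM (176 to 184) in BM and 125 CPM (122 to 129) in PB, and its product is the substrate of the protease PAPPA. AT was 1.93-fold above BM (1.88 to 1.99) and 2.77-fold above PB (2.68 to 2.86). *IGFBP6*, on chromosome 6 at a distance from the other pair, was at 385 CPM (379 to 391), 761 CPM (753 to 770.0) and 449 CPM (442 to 455). BM was 1.98-fold above AT (1.94 to 2.01) and 1.70-fold above PB (1.67 to 1.73). After thinning, the AT, BM and PB cells with an *IGFBP4* UMI made up 54.8%, 32.6% and 25.8%, and those with an *IGFBP6* UMI 53.0%, 77.0% and 62.5%, so that the order of sources was reversed between AT and BM for this pair.

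**Figure D2:**
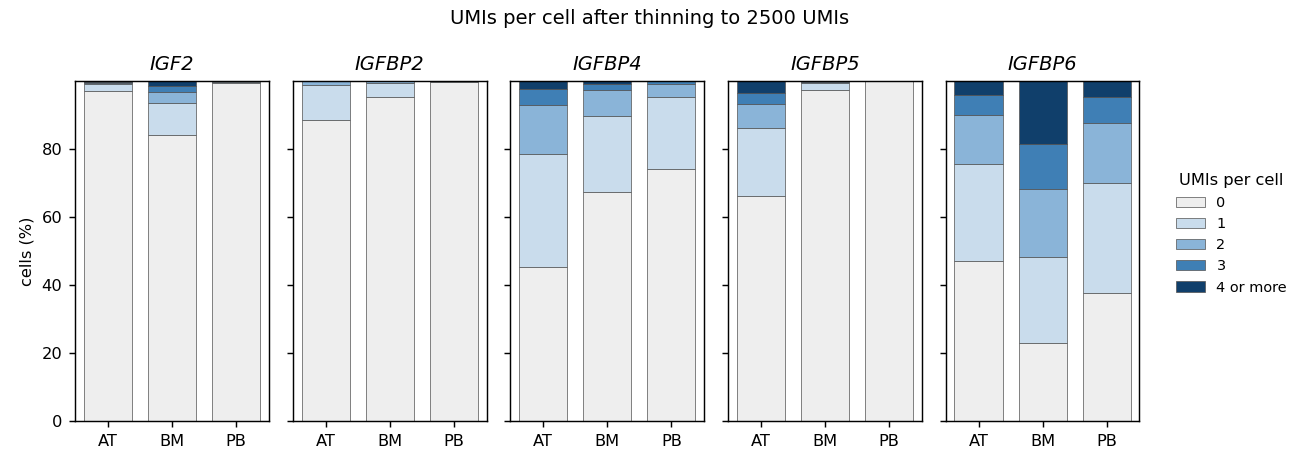
Percent of kept cells with 0, 1, 2, 3 and 4 or more UMIs of 5 IGF axis genes after every cell was thinned to 2500 UMIs, in AT (5403 cells), BM (5580) and PB (5318). The bars of *IGFBP5* show 34.0% of AT cells with a UMI and 0% of PB cells, while those of *IGFBP6* show 18.4% of BM cells with 4 or more UMIs.

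The last pair of binding proteins was rare in AT and PB, with UMIs in at most 2.24% of cells, and *IGFBP7* was found in 12.3% and *IGFBP3* in 3.80% of BM cells. *IGFBP7*, on chromosome 3, encodes a secreted protein of the vessel wall and stroma that binds IGFs only weakly. It reached 1.15 CPM (0.842 to 1.53) in AT, 20.4 CPM (19 to 21.8) in BM and 0.0721 CPM (0.0149 to 0.211) in PB, so that BM was 17.7-fold above AT (13.2 to 24.4), and 283-fold above PB with an interval of 96.4 to 1374 set by 3 UMIs. *IGFBP3*, on chromosome 4, encodes the main carrier of IGFs in the circulation. It was at 4.15 CPM (3.54 to 4.83) in AT and 7.85 CPM (7.01 to 8.77) in BM, and all 5 of its UMIs in PB came from a single cell. The log2 difference between AT and BM of −0.78 turned to 0.19 in cells without a cycling call and to 0.24 without the cells that had *HMX2* or *HMX3* UMIs.

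At the level of the whole axis, a gene was called past 2-fold when log2(CPM + 1) differed by at least 1, among 11479 genes with a mean of at least 1 CPM over the 3 sources. *IGF1* did not pass this filter and the other 9 members did. Between AT and BM, 4 of 9 members were past 2-fold, *IGFBP2* and *IGFBP5* being higher in AT and *IGF2* and *IGFBP7* in BM, against 11.0% of all genes, with 2.57% higher in AT and 8.45% higher in BM. *IGFBP6* at −0.98 and *IGFBP4* at 0.95 lay just inside the line. *IGFBP4* was past it at 1.22 with TMM factors. *IGFBP6* was past it in 5 alternatives, at −1.09 to −1.03, but shrank to −0.70 with TMM factors. *IGFBP2*, at 1.12, was no longer past it at 0.98 when all barcodes with at least 500 UMIs were used. Between AT and PB, 6 of 9 members (*IGF2*, *IGFBP2*, *IGFBP3*, *IGFBP4*, *IGFBP5* and *IGFBP7*) were past 2-fold, all of them higher in AT, against 10.4% of all genes either way, 4.42% higher in AT and 5.98% higher in PB. *IGFBP7* stood at 1.0 there, on the line itself. Between BM and PB, 5 of 9 members (the same list without *IGFBP4*) were past 2-fold, all higher in BM, against 8.27% of all genes either way, 5.94% higher in BM and 2.33% higher in PB.

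The medians of the 9 members were −0.47 between AT and BM, 1.46 between AT and PB and 2.98 between BM and PB on the log2 scale, against −0.24, −0.04 and 0.20 over all genes. The 3 comparisons share their libraries, so the members low in PB are counted in both comparisons with PB. TMM factors moved the median of all genes by 0.25 between AT and BM and by −0.21 between BM and PB. With total UMIs, 295 genes were higher and 970 lower in AT than in BM, or 23.3% higher, and with TMM factors 455 and 681, or 40.1%. Between BM and PB the numbers were 682 higher and 267 lower (71.9% higher) and 465 and 382 (54.9%). Leaving out the barcodes kept in more than 1 source, an alternative chosen after seeing the data, left 4, 6 and 5 members past 2-fold.

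**Figure D3:**
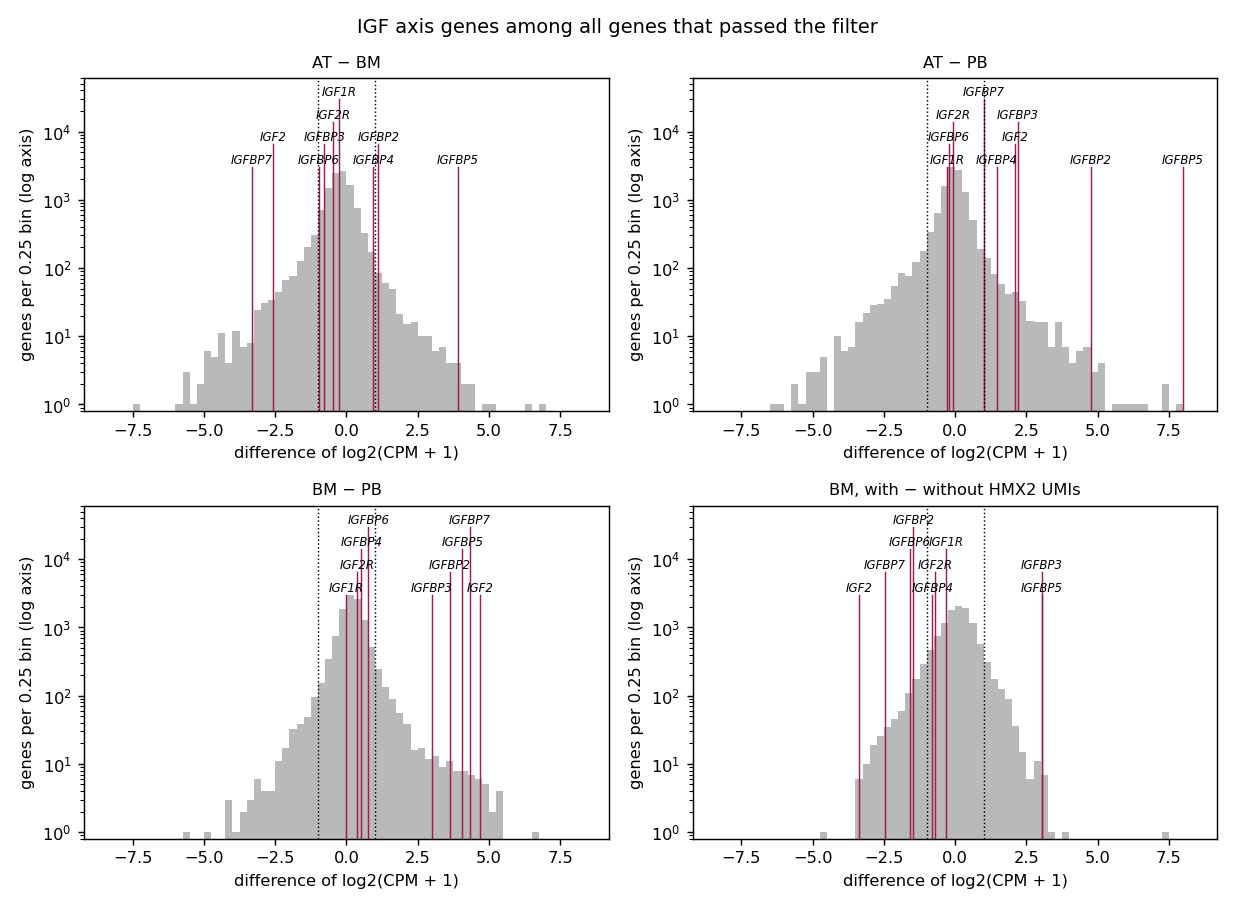
Histograms of the difference of log2(CPM + 1) over all genes that passed the filter (bins of 0.25, log count axis) for AT minus BM, AT minus PB, BM minus PB, and BM cells with minus without *HMX2* UMIs. Lines mark the 9 IGF axis genes tested, staggered in height for legibility only, and dotted lines the 2-fold limits. *IGFBP5* lies at 7.98 in AT minus PB, and in BM minus PB no member lies below the lower limit.

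Other genes of the pathway were read from a list of 41 genes, of which 40 had a row and 30 passed the filter. Of these 30, 0 were past 2-fold higher and 5 lower in AT than in BM, 0 higher and 4 lower in AT than in PB, and 3 higher and 1 lower in BM than in PB. Over all genes, 2.57% were higher and 8.45% lower in the first of these comparisons, 4.42% and 5.98% in the second, and 5.94% and 2.33% in the last, so that 0 of 30 higher in AT was near the share of all genes. With TMM factors, an alternative added after seeing the data, 1 was higher and 3 lower in AT than in BM, 1 higher and 4 lower in AT than in PB, and 1 higher and 1 lower in BM than in PB. *ADAM12* (−0.82) and *GRB10* (−0.89) between AT and BM, and *ADAM9* (0.96) and *M6PR* (0.81) between BM and PB, were then no longer past 2-fold, while *STC2* (1.0, AT over BM) and *IRS2* (1.01, AT over PB) were. *STC1*, which encodes an inhibitor of the IGFBP protease PAPPA, was at 1.15 CPM in AT and 12.3 CPM in BM. *ADAM12*, a protease of IGFBP3 and IGFBP5, was at 13.6 CPM in AT and 29.9 CPM in BM, and *GRB10*, an adaptor that dampens IGF1R signalling, at 13.5 and 31.4 CPM. *IGF2BP2*, which encodes an mRNA-binding protein named for its binding to *IGF2* mRNA, was at 15.9 CPM in AT, 56.8 CPM in BM and 63.7 CPM in PB. Between BM and PB the genes past 2-fold higher with total UMIs were *ADAM9*, a protease of IGFBP5 (125 against 54.1 CPM), *IRS2*, a docking protein of the activated receptor (16.9 against 3.72 CPM), and *M6PR*, the cation-dependent mannose 6-phosphate receptor (51.6 against 24.5 CPM). The remaining calls, named here after their values were seen, were *IRS1*, which was lower in AT at 0.125 CPM than in BM at 2.21 CPM or PB at 1.49 CPM, *STC1*, lower in AT than in PB at 7.59 CPM, and *IGF2BP1*, at 0.050 and 0.149 CPM in AT and BM and 8.79 CPM in PB.

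The protease genes themselves were unequal in level. *HTRA1*, which encodes a secreted serine protease that cleaves IGFBP5, was at 313 CPM in AT, 427 CPM in BM and 473 CPM in PB, whereas *PAPPA* had 0.325, 0.646 and 0.0721 CPM. The kin gene *IGFBP1* had no UMI in any source. *AKT1*, which encodes a kinase downstream of the receptor, was at 32.7, 59.8 and 41.1 CPM and stayed within 2-fold in the comparisons of sources.

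Within BM, the cells with *HMX2* UMIs carried another pattern of the axis than the rest of the culture. *HMX2* and the adjacent *HMX3* on chromosome 1 encode homeobox transcription factors known from inner ear and brain development. A total of 347 of 5580 BM-derived MSCs (6.22%, 5.60 to 6.88) had at least 1 *HMX2* UMI, against 1.17% of the AT and 0.0752% of the PB cells. These cells had a median of 10219 UMIs against 6749 in the other 5233, 82.4% of them were called cycling against 28.4%, and 77.5% lacked *JAM2* UMIs against 17.7%. Depth and cycling thus moved with this split, and values within a narrower range of depth and within the cycling classes are given beside the results.

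*IGFBP5* and *IGFBP3* were higher in the BM cells with *HMX2* UMIs. *IGFBP5* was at 85.5 CPM (76.1 to 95.8) with and 9.56 CPM (8.58 to 10.6) without *HMX2* UMIs, a ratio of 8.95 (7.65 to 10.5), and *IGFBP3* at 43.6 CPM (37.0 to 51.1) and 4.44 CPM (3.78 to 5.17), a ratio of 9.83 (7.83 to 12.3). After thinning, a UMI of *IGFBP5* was seen in 17.6% of cells with and 1.59% of cells without *HMX2* UMIs, and one of *IGFBP3* in 11.2% and 0.955%. These 347 cells, 6.22% of the culture, had 3507123 of the 40239295 UMIs of all genes in BM. They held 46.1% of all *IGFBP5* UMIs and 48.4% of all *IGFBP3* UMIs of BM. Their *IGFBP5* level was still below the 258 CPM of AT as a whole.

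The ligand and the remaining binding proteins were lower in the same cells. *IGF2* was at 11.1 CPM (7.91 to 15.2) with and 123 CPM (119.8 to 127) without *HMX2* UMIs, so that the cells without were 11.1-fold higher (8.10 to 15.6). *IGFBP6* was at 269 CPM (252 to 287) and 808 CPM (799 to 818), a 3.00-fold difference (2.81 to 3.21). *IGFBP7* was at 3.14 CPM (1.57 to 5.61) and 22.0 CPM (20.5 to 23.6), *IGFBP2* at 7.41 CPM (4.84 to 10.9) and 22.3 CPM (20.8 to 23.9), and *IGFBP4* at 107 CPM (96.4 to 118) and 187 CPM (182 to 191). *IGF1R* was at 27.7 CPM (22.4 to 33.7) with and 34.8 CPM (33.0 to 36.8) without, a ratio of 0.794 (0.639 to 0.976). *IGF2R* was at 16.8 CPM (12.8 to 21.7) and 28.3 CPM (26.6 to 30.1), or −0.72 on the log2 scale, and was past 2-fold at −1.08 when cells were thinned to 2500 UMIs. In all, 6 of 9 members were past 2-fold, *IGFBP3* and *IGFBP5* higher and *IGF2*, *IGFBP2*, *IGFBP6* and *IGFBP7* lower with *HMX2* UMIs, against 13.5% of 11513 genes, 6.80% of them higher and 6.74% lower.

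The median over the 9 members was −0.80 and that over all genes 0.09. TMM factors moved the latter by −0.16 and turned 783 higher and 776 lower genes (50.2% higher) into 573 and 1028 (35.8%). Of 29 pathway genes tested in this split, 0 were past 2-fold higher and 3 lower, against 6.80% and 6.74% of all genes. The 3 were *STC1* (3.14 against 13.1 CPM), *IRS2* (8.27 against 17.7 CPM) and *GRB10* (10.6 against 33.3 CPM). With TMM factors 5 were lower, with *HTRA1* (−1.15) and *LRP1* (−1.09) added, while the lower genes among all went from 776 to 1028. The summed stromal markers were at 5592 CPM with and 9319 CPM without *HMX2* UMIs, the smooth muscle or pericyte markers at 1986 and 3146 CPM, and the cell cycle genes at 2754 and 812 CPM. Of the endothelial markers 0 CPM was seen in the cells with *HMX2* UMIs, and the haematopoietic markers summed to 0.570 CPM, under the limit of 0.855 CPM that 3 UMIs set there.

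The differences of the 6 members past 2-fold had the same sign in cycling and not cycling cells, with unequal sizes. Among cycling cells (286 with and 1485 without *HMX2* UMIs), *IGFBP5* was at 89.6 against 23.6 CPM and *IGFBP3* at 48.1 against 11.5 CPM, or 1.88 and 1.98 on the log2 scale. Among not cycling cells (61 and 3748), the values were 65.5 against 3.06 CPM and 21.8 against 1.19 CPM, or 4.03 and 3.38. *IGF2* differed by −4.36 in cycling and −1.48 in not cycling cells, and *IGFBP6* by −1.47 and −1.16. *IGFBP2* was not past 2-fold among not cycling cells, at −0.90 with an interval of −2.17 to 0.19, and *IGFBP4* was past it among cycling cells, at −1.08, and stood at −0.36 among the others. *IGFBP7* differed by −2.57 in cycling and −1.43 in not cycling cells. With depth narrowed to 5000 to 10000 UMIs (146 and 3732 cells), where the medians still differed at 8584 and 6927 UMIs, *IGFBP5* differed by 3.32, *IGFBP3* by 3.53 and *IGF2* by −2.74, beside the 3.04, 3.04 and −3.36 of all cells. Whether cycling or depth had a part in the differences that remained was not tested.

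**Figure D4:**
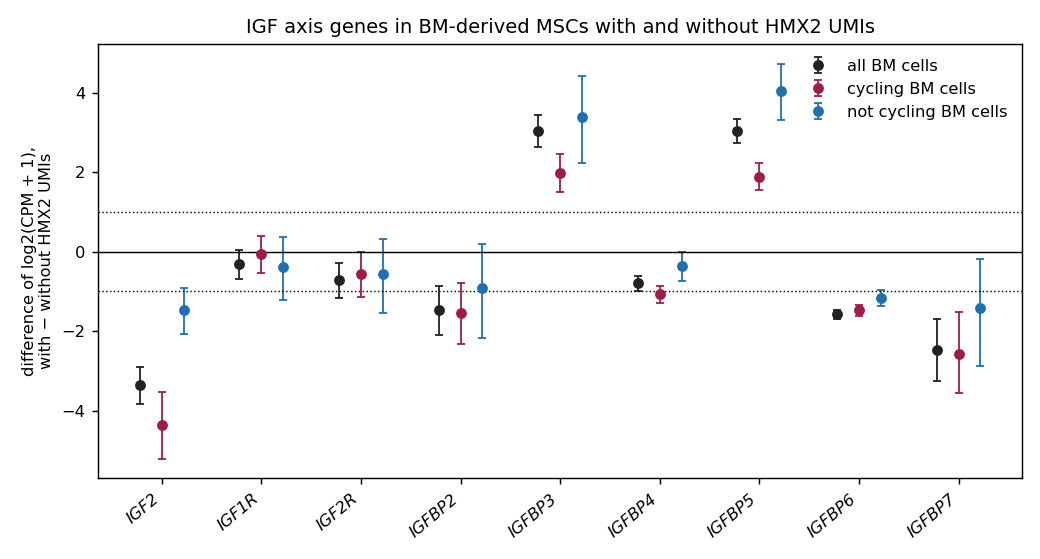
Difference of log2(CPM + 1) of the 9 tested IGF axis genes between BM-derived MSCs with and without *HMX2* UMIs, in all cells (347 against 5233), cycling cells (286 against 1485) and not cycling cells (61 against 3748). Points are values and dotted lines mark 2-fold. Bars pair the lower 95% Poisson limit of each group with the upper limit of the other, so they are wider than 95% intervals. The points of *IGFBP3* and *IGFBP5* lie above the upper line and those of *IGF2*, *IGFBP6* and *IGFBP7* below the lower line in all 3 sets of cells.

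The number of *HMX2* UMIs per cell, from 0 through 1 and 2 to 3 or more (5233, 214, 86 and 47 cells), did not grade *IGFBP5* beyond the first UMI. Its level was 9.56 CPM without a UMI and 84.7, 87.1 and 86.3 CPM with 1, 2 and 3 or more, with overlapping intervals among the last 3 classes. *IGFBP3* was at 4.44 CPM and then at 43.1, 47.9 and 38.3 CPM. *IGF2* was at 123 CPM without, 16.5 CPM (11.4 to 23.0) with 1, 4.35 CPM (1.19 to 11.1) with 2 and 1.92 CPM (0.0485 to 10.7) with 3 or more UMIs, the last from a single UMI.

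*JAM2*, which encodes a junctional adhesion molecule and was at 456 CPM in BM, 165.9 CPM in PB and 1.60 CPM in AT, split the BM cells further. The 269 cells with *HMX2* and without *JAM2* UMIs had 91.2 CPM of *IGFBP5*, the 78 with both 67.4 CPM, the 927 with neither 45.5 CPM and the 4306 with *JAM2* alone 2.10 CPM. *IGFBP3* was at 42.2, 48.1, 20 and 1.22 CPM, with overlapping intervals of the first 2 classes. The cells with *JAM2* and without *HMX2* UMIs were thus low in both genes, while cells that lacked both UMIs were intermediate. By value alone, *IGF2* had the order opposite to that of *IGFBP5*, at 2.62, 38.5, 109 and 126 CPM. So did *IGFBP6* at 241, 361, 523 and 867 CPM and *IGFBP7* at 1.49, 8.42, 20.8 and 22.3 CPM. The *IGFBP7* intervals overlapped between the first 2 classes and between the last 2. A cell without a UMI of a gene may still have transcribed it, so that the 4 classes are not pure. In PB, the 3415 cells with and the 1903 without *JAM2* UMIs had 3.06 and 4.39 CPM of *IGF2*. The ratio was 0.699 (0.495 to 0.992), while the wider limits of the log2 difference were −0.95 to 0.14. *IGFBP6* was at 459 and 426 CPM in these cells.

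**Figure D5:**
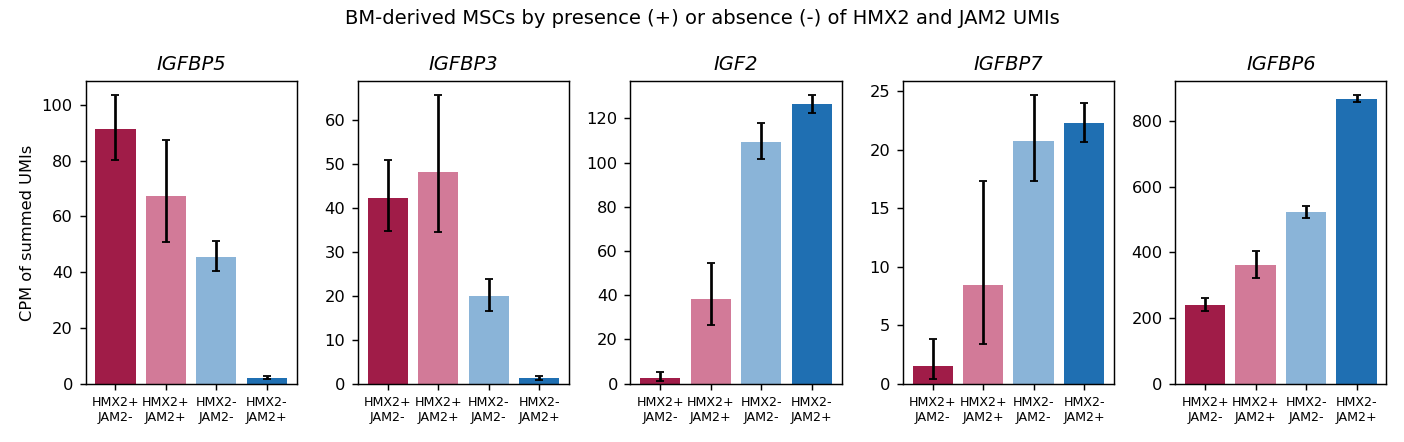
CPM of 5 IGF axis genes in BM-derived MSCs by presence (+) or absence (-) of *HMX2* and *JAM2* UMIs (269, 78, 927 and 4306 cells from left to right), with exact 95% Poisson intervals. *IGFBP5* was at 91.2 CPM in the HMX2+ JAM2- cells and 2.10 CPM in the HMX2- JAM2+ cells, and *IGF2* at 2.62 and 126 CPM.

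The split by *ACTG2*, the smooth muscle gamma actin, set *IGFBP5* apart in AT. AT-derived MSCs with *ACTG2* UMIs (2792 cells) had 351 CPM of *IGFBP5* against 143 CPM in those without (2611 cells), a log2 difference of 1.29 (1.20 to 1.38), and the median depths were 7750 and 6820 UMIs. *IGFBP6* was lower in the same cells, at 301 against 489 CPM, and *IGFBP4* differed less, at 327 against 372 CPM. In BM the cells with *ACTG2* UMIs (1645 of 5580) had 39.8 CPM of *IGFBP5* against 4.0 CPM, 17.2 CPM of *IGFBP3* against 3.02 CPM, and 66.8 CPM of *IGF2* against 138 CPM. The median depths there were 8069 and 6489 UMIs. *ACTG2* UMIs were seen in 72.9% of BM cells with and 26.6% of those without *HMX2* UMIs, so this split overlaps with that by *HMX2*. *ACTG2* itself was at 536 CPM in BM cells with and 150.3 CPM in those without *HMX2* UMIs, whereas the smooth muscle or pericyte list summed to 1986 and 3146 CPM.

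Cycling cells had more *IGFBP3* than the other cells in both sources with enough UMIs. The level was 12.8 against 2.05 CPM in AT and 18.8 against 1.67 CPM in BM, log2 differences of 2.18 (1.66 to 2.68) and 2.89 (2.44 to 3.33). *IGFBP5* was higher in cycling cells of BM, at 36.9 against 4.51 CPM, and was at 237 against 263 CPM in AT. *IGF2* was lower in cycling cells, at 8.44 against 20.4 CPM in AT and 67.0 against 140 CPM in BM. When the kept BM cells were ranked by their UMIs into 3 sets of 1860, *IGFBP5* was at 4.66, 7.33 and 27.7 CPM from the shallowest to the deepest set and *IGFBP6* at 883, 901 and 608 CPM. In AT, *IGFBP5* was at 239.9, 253 and 269 CPM over the same ranking.

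Cells of BM that carried the ligand were low in *IGFBP5* and *IGFBP3*. The 1366 cells with *IGF2* UMIs had 1.80 CPM of *IGFBP5* and 0.501 CPM of *IGFBP3*, against 20.9 and 10.3 CPM in the 4214 without, at median depths of 6940.5 and 6857.5 UMIs. They had more *IGFBP7*, at 31.8 against 16.6 CPM, and 919 against 709 CPM of *IGFBP6*. In AT the 293 cells with *IGF2* UMIs had 310 CPM of *IGFBP5* against 254 CPM. Whether the relation of *IGF2* to *IGFBP5* differed between AT and BM was not tested.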

How the data were processed

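Droplet-based 3′ scRNA-seq gave 1 library each for AT-, BM- and PB-derived MSCs. The values are whole UMI counts, not normalized, as deposited by the authors, who ran Cell Ranger against EquCab3.0 and then ESAT, which adds reads just downstream of annotated genes and leaves out exons that overlap on opposite strands.

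Kept cells (limits given above, as in the study's methods) held 39980656 (AT), 40239295 (BM) and 41622445 (PB) UMIs. Doublets were limited only by the upper bound, and the multiplet caller the methods name was not run. Genes differing by at least 1 in log2(CPM + 1) were called past 2-fold among genes of at least 1 CPM, averaged over the sources or, for the split by *HMX2*, over BM. No test was run across cells, because each source had 1 library. For shares and Fano factors each cell was thinned at random to 2500 UMIs. The cell cycle list had 16 genes, of which 15 had a row. Intervals came from SciPy 1.17.1, TMM factors from edgeR 4.0.16 in R 4.3.3, and the rest from Python 3.11.15 with NumPy 2.4.6 and matplotlib 3.10.9. The computation was tested on simulated data.

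Named genes are the 10 members, *HMX2*, *HMX3*, *JAM2* and *ACTG2*, pathway genes past 2-fold with at least 10 CPM in a group, and the 3 genes most correlated across cells (r of at least 0.15) with each member that 25% or more of a source's cells carried. *HTRA1*, *PAPPA*, *IGFBP1*, *AKT1*, *STC2*, *LRP1* and the markers listed by name were added after their values were seen. The members and lists were chosen with earlier results of these data known. The splits by *ACTG2* in BM, *JAM2* in PB, *HMX2* in AT and *IGF2* in AT and BM were not among the planned ones. All 10 members matched RefSeq by symbol, whose assembly differs from EquCab3.0, so no coordinates are given. The alternatives concerned depth, barcode limits, shared barcodes, scaling, pseudocount, filter, weighting of cells, cell cycle and the *HMX2* threshold.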

Additional observations from a re-analysis of the deposited data

Results flagged for a closer look

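UMIs of the 10 IGF axis genes were also present in barcodes that the main comparisons did not use, those under the lower limit of 2500 UMIs. There were 3931 such UMIs in 6155 AT barcodes, 676 in 526 BM barcodes and 379 in 554 PB barcodes, each above the limit of 3 UMIs. In BM these barcodes had 103.8 CPM of *IGF2* against 114 CPM in the kept cells, 14.0 against 16.2 CPM of *IGFBP5*, 541 against 761 CPM of *IGFBP6* and 30.9 against 21.0 CPM of *IGFBP2*, and in PB they held no *IGFBP5*, *IGFBP2*, *IGFBP3* or *IGFBP7* UMI. In AT they had 28.6 CPM of *IGFBP5* against 258 CPM in the kept cells, 9.41 against 46.7 CPM of *IGFBP2*, and 168 against 347 CPM of *IGFBP4*, but 19 against 18.1 CPM of *IGF2* and 426 against 385 CPM of *IGFBP6*. Of the 6155 AT barcodes, 5279 were also among the kept barcodes of the PB library. In these the values were 9.26 CPM of *IGFBP5*, 1.81 CPM of *IGFBP2*, 147.7 CPM of *IGFBP4*, 5.87 CPM of *IGF2* and 450 CPM of *IGFBP6*. The values of all 6155 AT barcodes thus average over these and the remaining ones. Without the AT and BM barcodes that another matrix also holds, the log2 difference of *IGFBP5* between AT and BM was 3.91, as with all kept cells. Without the barcodes kept in more than 1 source, an alternative chosen after seeing the data, the difference between AT and PB was 7.99 against 7.98. The first of these could not be run for PB, since it left no PB cell.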

How the results depend on the processing

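The 40 differences of single members (10 genes in 4 comparisons) were recomputed under all alternatives that could be run, which gave 570 values. Of the differences past 2-fold 0 changed sign. Those of *IGF1* between AT and BM and of *IGF1R* between BM and PB, which lay near 0, did, as did that of *IGFBP3* between AT and BM, at −0.78. In all, 26 values crossed the 2-fold line and they belonged to 15 of the 40 differences. Of 57 recomputed counts of members past 2-fold, 4 differed from the main count by over 1.5 times. With a pseudocount of 25 CPM the counts were 2 between AT and BM, 3 between AT and PB, 1 between BM and PB and 4 in the split by *HMX2*, where *IGFBP2* (−0.55) and *IGFBP7* (−0.74) were no longer past 2-fold, since a larger pseudocount shrinks differences of low genes. With a filter of at least 10 CPM 3 of the 7 members left were past 2-fold between BM and PB. The shares of all genes given above hold for a pseudocount and a filter of 1 CPM. No share of all genes thus stands beside the counts in these settings, and they cannot be set against it. *IGFBP3*, at −0.78 between AT and BM and not past 2-fold, turned to 0.19 in cells without cycling call and to 0.24 without the cells with *HMX2* or *HMX3* UMIs, the latter an alternative chosen after seeing the data. *IGFBP2* between AT and BM, at 1.12, fell to 0.98 with all barcodes of at least 500 UMIs and to 0.64 with the larger pseudocount. The former setting takes in AT barcodes that were kept in PB. *IGFBP6*, at −0.98, was past 2-fold at −1.06 after thinning, −1.03 with an upper limit of 10000 UMIs, −1.07 in cells without cycling call, −1.09 without the cells with *HMX2* or *HMX3* UMIs and −1.04 as a mean of single-cell CPM. With TMM factors it shrank to −0.70. *IGFBP5* between AT and BM ranged from 2.78 with the larger pseudocount to 5.58 in cells without cycling call, around 3.91. *IGF2* between AT and BM, at −2.59, was −2.20 without the mitochondrial limit, −2.32 with TMM factors and −1.69 with the larger pseudocount. Between AT and PB, *IGF2* at 2.09 was 2.48 without the mitochondrial limit and 0.60 with the larger pseudocount. *IGFBP7* between AT and PB fell to the other side of the line in 6 alternatives, down to 0.06 with the larger pseudocount. In the split by *HMX2*, *IGF2* ranged from −4.80 with at least 2 UMIs to −1.48 in cells without cycling call, and *IGFBP7* stood at −4.48 with *HMX3* in place of *HMX2*, against −2.48. In the 189 BM cells with *HMX3* UMIs, *IGFBP7* lay under the limit of 3 UMIs, so the pseudocount of 1 CPM set the size of that difference. Leaving out every barcode that another matrix also holds could be run only between AT and BM and within BM, since it left no PB cell. No paired analysis was possible because each source had 1 library and no test was run. The depth limits values below 0.0721 to 0.0750 CPM per source. With 1 library per source, culture and library effects are unseparated from the source. All 3 cultures came from 1 mare, so variation between animals was not measured.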

Other observations

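Across cells of a library, *IGFBP5* in AT was most correlated with the actin gene *ACTG2* (Pearson's r of 0.30 over 5403 thinned cells), the tropomyosin gene *TPM1* (0.29) and *THBS1* (0.27), which encodes thrombospondin. *IGFBP6* was in AT most correlated with *LGALS3* (0.25), *S100A4* (0.24) and *S100A10* (0.18), which encode a galectin and proteins of the S100 family, and in PB with *S100A4* (0.24), *S100A3* (0.18) and *LGALS3* (0.16). In BM it was most correlated with the matrix proteoglycan gene *LUM* (0.34), the protease gene *CTSK* (0.25) and the protease inhibitor gene *CST3* (0.22). *IGFBP4* reached the limit of 0.15 in BM, with *S100A5* (0.18), *S100A6* (0.17) and the chemokine gene *CCL26* (0.17). *IGFBP5* and *IGFBP6* had r of −0.15 both in AT and in BM. These values are descriptions of cells that share a library and a culture, over 4189 to 4689 genes compared.

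The *HMX2*-positive cells of AT were few, 63 of 5403. They had 289 CPM of *IGFBP5* against 257 CPM in the other AT cells, with a log2 difference of 0.17 (−0.10 to 0.42), and 1.90 against 4.18 CPM of *IGFBP3*, the former from 1 UMI. *IGF2* was at 1.90 against 18.3 CPM, again from 1 UMI. Whether these differences were unlike those of BM was not tested.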
